A study of Mus musculus with 32 samples.

Results

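The genes described here are 9 that encode integrin chains of the epidermis and chains of laminin-332, its main anchoring laminin. They were matched by symbol among the 55401 genes counted in each mouse, and all 9 were found and tested among 15546 genes with at least 1 cpm (count per 1000000 reads) in at least 1 mouse. By role they form 4 sets, namely the hemidesmosome integrin (Itga6, Itgb4), laminin-332 chains (Lama3, Lamb3), β1 integrins of resting epidermis (Itga2, Itga3, Itgb1) and wound-induced integrins (Itga5, Itgb6). RNA was sequenced from the epidermis of 32 mice of the hairless B6.129-SKH1-Hr hr strain, aged 10 to 14 weeks, in 8 groups of 4 mice by sex, genotype and treatment, with the hairless background shared by all groups. WT mice were +/+ and KO mice were -/- for Ppard, which encodes the nuclear receptor PPARβ/δ. UV mice received a single dose of 120 mJ/cm2 and were sampled 24 h later, and Control mice were not irradiated. Each sample was 1 animal, whose epidermis was separated from the dermis chemically before RNA was extracted.

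Integrins are surface receptors made of an α and a β chain that tie a cell to the matrix. Basal keratinocytes rest on the basement membrane through hemidesmosomes, in which integrin α6β4 binds laminin-332 outside the cell and keratin filaments through plectin inside, while α3β1 binds the same laminin and connects to actin. In wound healing, keratinocytes at the wound edge gain the fibronectin receptor α5β1 and αvβ6, a receptor that also activates latent TGF-β, and they lay down new laminin-332. Whether these sets changed together after UV, and whether genotype altered the change, are the questions that the groups allow.

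The start regions of 3 members are shown because their levels changed by different amounts after UV: Itgb1 and Itga5 belonged to the strongest rises and Itgb6 to the weakest. Each run is the 250 bases before the start of the gene in RefSeq (GRCm38.p6), written 5′ to 3′ on the strand of the gene. Capitals mark any match, on either strand, to AP-1 (TGANTCA), TEAD (CATTCC) or SP1 (GGGCGG).
Itgb1, chr8:128685404-128685653, plus strand: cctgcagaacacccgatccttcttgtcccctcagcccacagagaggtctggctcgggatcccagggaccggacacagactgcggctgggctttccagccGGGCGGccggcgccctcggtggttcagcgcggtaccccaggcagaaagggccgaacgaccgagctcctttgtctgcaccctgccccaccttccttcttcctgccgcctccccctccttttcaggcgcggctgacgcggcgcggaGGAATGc
Itga5, chr15:103366792-103367041, minus strand: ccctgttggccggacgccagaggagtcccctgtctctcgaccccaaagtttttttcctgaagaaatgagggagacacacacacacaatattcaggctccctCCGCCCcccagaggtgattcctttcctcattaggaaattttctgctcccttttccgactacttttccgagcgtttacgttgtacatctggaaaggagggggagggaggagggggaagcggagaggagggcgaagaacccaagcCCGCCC
Itgb6, chr2:60722604-60722853, minus strand: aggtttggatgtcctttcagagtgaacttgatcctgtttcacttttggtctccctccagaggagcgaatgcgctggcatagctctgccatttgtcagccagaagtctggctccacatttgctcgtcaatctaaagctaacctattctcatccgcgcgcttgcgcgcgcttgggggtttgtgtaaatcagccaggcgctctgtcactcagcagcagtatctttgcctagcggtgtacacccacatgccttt
The window of Itgb1 held 1 SP1 match and 1 TEAD match, that of Itga5 held 2 SP1 matches, and that of Itgb6 held none of the 3 motifs. Windows were at hand for 6 of the 9 members, 9 windows in all, because Itga3, Itgb6 and Lamb3 each had 2 annotated starts. None of the 9 held the AP-1 motif, which 6.75% of all 32851 mouse windows held. The TEAD motif was in 2 of the 9 and in 12.6% of all windows, and the SP1 motif in 4 of the 9 and in 32.7% of all windows. A match is a run of letters and not a site of binding.

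In WT mice all 9 members rose after UV, by 2.12-fold (Lamb3) to 6.67-fold (Itga5). All 9 also rose in KO mice, by 2.42-fold (Itgb6) to 10.5-fold (Itga5). The largest rises were those of Itga5 and Itgb1, and no member fell in either genotype. The median log2 change of the members was 1.73 in WT and 2.29 in KO, where the median over all genes tested was -0.01 and 0.09. UV moved much of the transcriptome, so that 34.5% of all genes tested rose and 36.5% fell in WT mice (edgeR, adjusted p under 0.05). In KO mice 37.3% rose and 33.5% fell. In bulk epidermis a change in the number of basal cells and a change in the RNA of each cell cannot be told apart.

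Of the hemidesmosome integrin, Itgb4 (ENSMUSG00000020758, chromosome 11, 115974709 to 116008412) encodes the chain whose long tail reaches the keratin filaments. In WT Control mice its level ranged from 77.2 to 236 cpm with a median of 154, and in WT UV mice from 402 to 720 with a median of 509. In KO mice it ranged from 80.4 to 150 cpm (median 100) without UV and from 364 to 719 (median 507) after UV. No UV mouse overlapped with a Control mouse of its genotype. The log2 change was 1.73 ± 0.19 (SE, 8 mice against 8) in WT (adjusted p = 3.1e-09) and 2.29 ± 0.19 in KO (adjusted p = 2.1e-11).

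Itga6 (ENSMUSG00000027111, chromosome 2, 71745616 to 71858416), its α partner, had 137 to 329 cpm in WT Control mice (median 185) and 410 to 717 in WT UV mice (median 596). KO mice had 138 to 215 cpm (median 169) and, after UV, 399 to 893 (median 592). The groups did not overlap in either genotype, and the log2 change was 1.44 ± 0.17 in WT and 1.78 ± 0.18 in KO (adjusted p = 3.0e-08 and 7.3e-10). The log2 ratio of Itga6 to Itgb4 within a mouse averaged 0.52 in Control and 0.19 in UV mice of WT, with overlapping ranges, and 0.70 and 0.18 in KO, where all 8 UV mice were below all Control mice.

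Laminin-332 holds the α3 and β3 chains, encoded by Lama3 and Lamb3, and its loss causes blistering. Lama3 (ENSMUSG00000024421) had 67.8 to 121 cpm in WT Control mice (median 80.7) and 125 to 317 in WT UV mice (median 213). In KO mice the range was 50.3 to 77 cpm (median 63.6) in Control and 163 to 451 (median 253) after UV. The groups did not overlap, although in WT the highest Control mouse was close to the lowest UV mouse. The log2 change was 1.35 ± 0.15 in WT and 2.09 ± 0.16 in KO (adjusted p = 7.5e-09 and 2.5e-12).

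Lamb3 (ENSMUSG00000026639, chromosome 1, 193207699 to 193343878) was the member with the smallest rise in WT mice. Its level was 35.1 to 122 cpm in WT Control mice (median 76.1) and 91.6 to 233 in WT UV mice (median 163). It was the 1 member whose WT groups overlapped, since UV mouse 57F (91.6 cpm) lay below Control mice 43M (105 cpm) and 61F (122 cpm). In KO mice the range was 36.3 to 73.6 cpm (median 49.3) in Control and 145 to 342 (median 186) after UV, without overlap. The log2 change was 1.09 ± 0.20 in WT (adjusted p = 2.5e-05) and 2.04 ± 0.21 in KO (adjusted p = 1.2e-09). The annotated span of Lamb3 overlaps genes on the opposite strand, Hsd11b1 and G0s2 among them, and whether the counting used strand is not given in the sources used here. The log2 ratio of Lamb3 to Lama3 within a mouse overlapped between UV and Control mice in each genotype, with a mean shift of -0.19 in WT and -0.05 in KO.

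Itgb1 (ENSMUSG00000025809, chromosome 8, 128685654 to 128733200) encodes the β1 chain shared by α2β1, α3β1 and α5β1. In WT mice it had 39.7 to 97.5 cpm (median 72.1) in Control and 233 to 488 (median 431) after UV. KO mice had 38.4 to 71.4 cpm (median 54.8) and 306 to 592 (median 429). The lowest UV mouse was thus well above the highest Control mouse, and the log2 change was 2.56 ± 0.17 in WT and 3.01 ± 0.18 in KO (adjusted p = 3.1e-13 and 2.0e-14).

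Itga3 (ENSMUSG00000001507, chromosome 11, 95044474 to 95076801), the laminin-332 receptor chain that pairs with β1, had 31.2 to 144 cpm in WT Control mice (median 77.4) and 250 to 418 in WT UV mice (median 320). In KO mice it had 34.3 to 77.9 cpm (median 54.9) and 248 to 423 (median 329). The groups did not overlap, and the log2 change was 2.01 ± 0.20 in WT and 2.55 ± 0.21 in KO (adjusted p = 8.5e-10 and 1.3e-11). Itga2 (ENSMUSG00000015533, chromosome 13, 114833081 to 114932100), the collagen receptor chain, was far less abundant, with 9.68 to 22.2 cpm in WT Control mice (median 14.6) and 34.9 to 78.2 in WT UV mice (median 62.4). KO mice had 7.81 to 15.9 cpm (median 11.6) and 47.0 to 108 (median 58.2). Its groups were also apart, with a log2 change of 1.90 ± 0.20 in WT and 2.53 ± 0.20 in KO (adjusted p = 1.6e-09 and 1.0e-11).

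Itga5 (ENSMUSG00000000555, chromosome 15, 103344286 to 103366763), the fibronectin receptor chain, had the lowest level of the members in Control mice and the largest fold. In WT it had 2.00 to 6.63 cpm (median 3.03), or 54 to 182 reads, in Control and 10.1 to 37.8 cpm (median 22.7) after UV. In KO it had 1.54 to 5.02 cpm (median 2.66) and 19.5 to 56.1 (median 27.8). Its groups did not overlap, and the log2 change was 2.74 ± 0.26 in WT and 3.39 ± 0.27 in KO (adjusted p = 2.6e-10 and 7.0e-12).

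Itgb6 (ENSMUSG00000026971, chromosome 2, 60598292 to 60722643), the epithelial β chain that pairs only with αv, rose by less than Itga5. WT mice had 10.4 to 20.0 cpm (median 12.0) in Control and 23.3 to 39.5 (median 31.5) after UV. KO mice had 8.37 to 17.0 cpm (median 13.4) and 27.8 to 36.4 (median 31.5). The groups were apart, and the log2 change was 1.31 ± 0.14 in WT and 1.28 ± 0.14 in KO (adjusted p = 2.9e-09 and 4.7e-09).

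Every UV mouse lay above every Control mouse for 8 of the 9 members in WT and for all 9 in KO, where 21.3% and 18.6% of all genes tested did so. Leaving out any 1 mouse, and each other tool, scaling or filter tried, left all 9 called in WT and in KO.

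**Figure D1:**
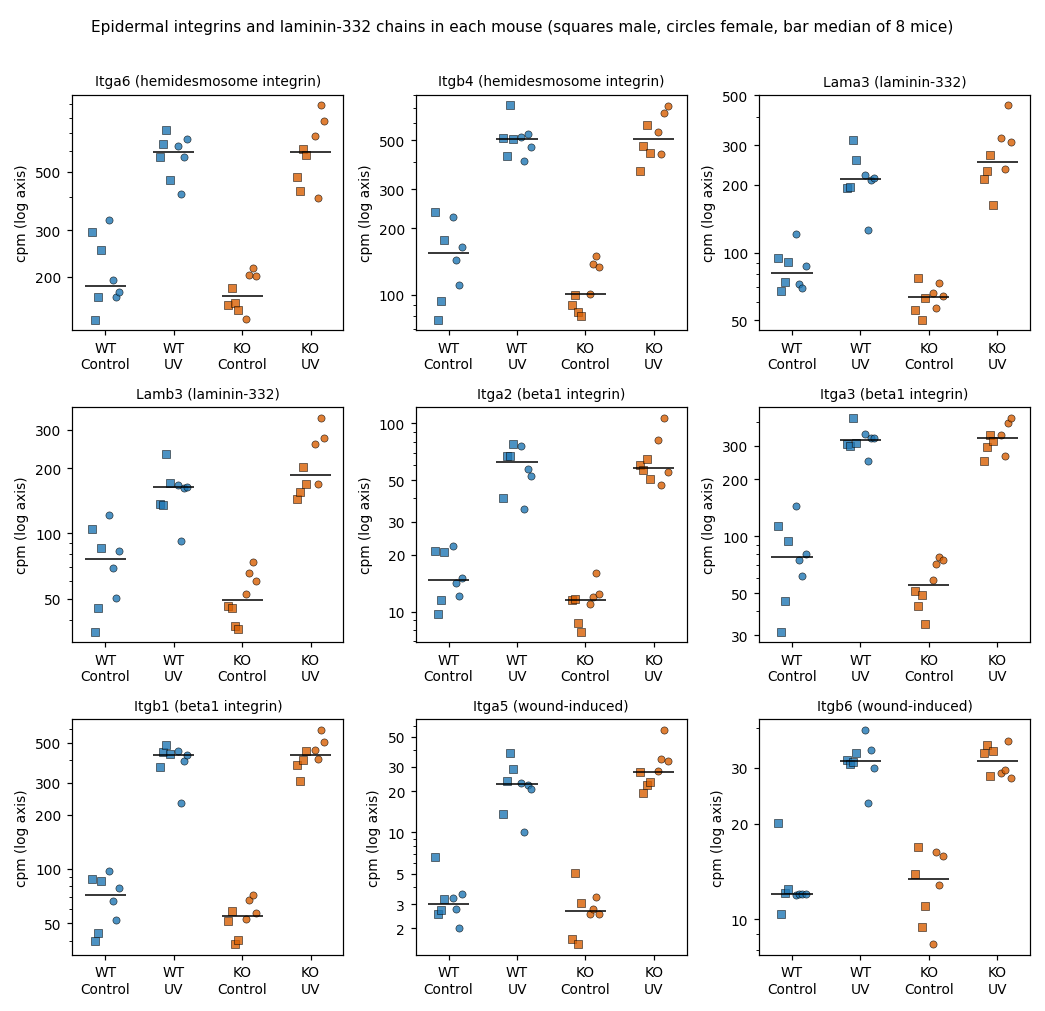
TMM-scaled cpm of each member in each mouse on a log axis, in WT and KO mice without UV and after UV; squares are males, circles are females and the bar is the median of 8 mice. Lamb3 in WT is the panel with overlap, where 1 UV mouse at 91.6 cpm lies below 2 Control mice.

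The rise held within each sex. In WT males, WT females, KO males and KO females all 9 members rose, with log2 changes of 1.21 to 2.77, 0.85 to 2.71, 1.35 to 3.03 and 1.20 to 3.75 respectively (4 mice against 4, edgeR). Of all genes tested 29.8%, 30.1%, 30.9% and 34% rose in these 4 comparisons. The lowest of the values, Lamb3 in WT females (0.85 ± 0.28, adjusted p = 0.011), lost its call without Control mouse 71F (log2 change 0.68, adjusted p = 0.051). For the sex-by-UV interaction, 0 of the 9 members and 0% of all genes were called by edgeR, with 0 members and 1091 genes at an unadjusted p under 0.05. DESeq2 called 22 genes and limma-trend 2, none of them a member. The widest of the member intervals was that of Itga5, whose UV change in females minus that in males was 0.33 (95% interval -0.38 to 1.04).

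No member differed between genotypes by edgeR's test, but the values were not centred on 0. In Control mice 8 of the 9 members had a lower fitted level in KO than in WT, with log2 differences of -0.24 (Itga5) to -0.54 (Lamb3), and Itgb6 was at 0.03. The smallest adjusted p was 0.40, for Itgb4 (log2 difference -0.52, 95% interval -0.89 to -0.14). At an unadjusted p under 0.05 there were 6 of the 9 members and 1324 of all genes, and 0.206% of all genes were called. The lower values were not particular to the members. The basal keratinocyte markers Krt5, Krt14, Krt15, Trp63, Col17a1 and Dst had -0.13 (Trp63) to -0.55 (Col17a1) in Control mice, and none was called. In UV mice the log2 differences of KO against WT ran from -0.00 (Itgb6) to 0.41 (Itga5), with 0 of the 9 members and 3.31% of all genes called. There, 2 of the 9 members and 3121 of all genes had an unadjusted p under 0.05. The interval for Itgb4 in UV mice was -0.33 to 0.41 and that for Itgb6 -0.28 to 0.28.

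The fitted UV change had a higher value in KO than in WT for 8 of the 9 members, the laminin chains furthest apart, but no gap passed edgeR's test. The change in KO minus that in WT was 0.95 ± 0.28 for Lamb3 (95% interval 0.37 to 1.53, adjusted p = 0.087) and 0.74 ± 0.21 for Lama3 (0.30 to 1.17, adjusted p = 0.082). For Itgb4 it was 0.56 ± 0.26 (0.03 to 1.08, adjusted p = 0.23). Itgb6 had -0.03 ± 0.19 (-0.43 to 0.37, adjusted p = 0.96). By edgeR 0 of the 9 members passed, at 0.765% of all genes. At an unadjusted p under 0.05 there were 4 of the 9 members and 3042 of all genes. The basal markers Krt5, Krt14, Krt15, Trp63, Col17a1 and Dst also had positive values, from 0.05 (Trp63) to 0.89 (Krt15), and none was called. DESeq2 called Lama3 (adjusted p = 0.030) and Lamb3 (adjusted p = 0.032), and without WT Control mouse 54M edgeR called Lamb3 (1.06, adjusted p = 0.045). The members do not give 9 separate answers on these points, because they varied together among the mice of a group. Over the 32 mice the correlation between deviations from the group means ranged from 0.36 (Lama3 with Itgb6) to 0.94 (Itgb4 with Itga3), with a median of 0.70 over 36 pairs. Mouse 54M was below its group mean in all 9 members, by 0.60 on the log2 scale on average, and Control mouse 43M was above it in all 9, by 0.64.

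**Figure D2:**
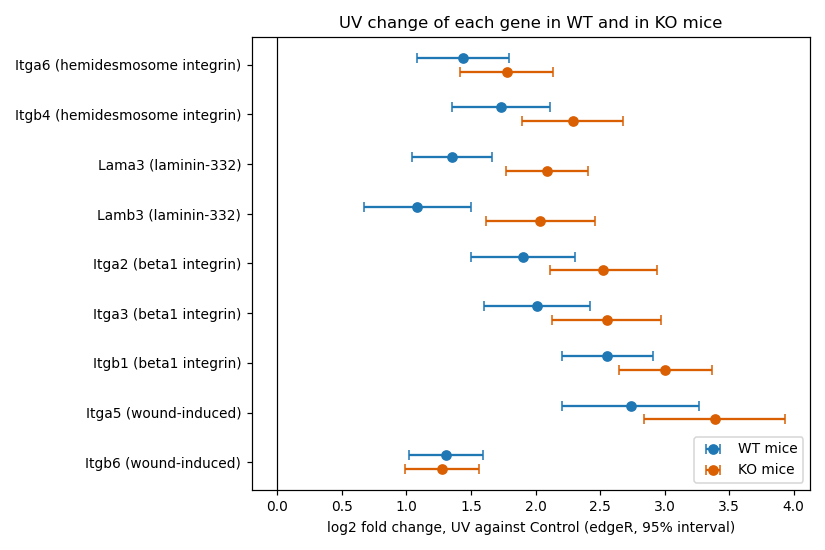
Log2 fold change of UV against Control mice with its 95% interval for the 9 members in WT (blue) and KO (orange) mice, 8 mice against 8 in each. The KO value lies to the right of the WT value for every gene except Itgb6, at 1.31 in WT and 1.28 in KO.

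Within a mouse, the balance between the wound-induced and the hemidesmosome integrin genes shifted little as sets, because Itga5 and Itgb6 went apart. The mean log2 cpm of Itga5 and Itgb6 minus that of Itga6 and Itgb4 was -4.75 ± 0.36 (SD, n = 8) in WT Control mice and -4.38 ± 0.25 in WT UV mice, a difference of 0.37. In KO mice it was -4.54 ± 0.34 and -4.18 ± 0.34, a difference of 0.36. The ranges overlapped in each genotype, with 3 of 8 WT and 2 of 8 KO UV mice above all Control mice. No test was run on this score.

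The members of each set behaved differently against Itgb4. The log2 ratio of Itga5 to Itgb4 was -5.49 ± 0.40 in WT Control mice and -4.58 ± 0.46 after UV, and -5.31 ± 0.53 and -4.15 ± 0.44 in KO mice. In contrast, the ratio of Itgb6 to Itgb4 was lower on average after UV, at -3.50 ± 0.46 and -4.00 ± 0.25 in WT and -3.06 ± 0.37 and -4.03 ± 0.41 in KO. For each of these ratios the ranges of Control and UV mice overlapped, to different degrees. For Itga5 to Itgb4, 6 of 8 WT and 5 of 8 KO UV mice lay above all Control mice of their genotype. For Itgb6 to Itgb4, 1 of 8 WT and 7 of 8 KO UV mice lay below them. The ratio that separated the groups in each genotype was that of Itgb1 to Itgb4, which ranged from -1.42 to -0.96 in WT Control mice and from -0.78 to 0.07 in WT UV mice. In KO mice it ranged from -1.23 to -0.77 and from -0.62 to 0.06. Among α chains, the ratio of Itga3 to Itga6 likewise did not overlap, with means of -1.49 and -0.84 in WT and of -1.65 and -0.85 in KO.

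**Figure D3:**
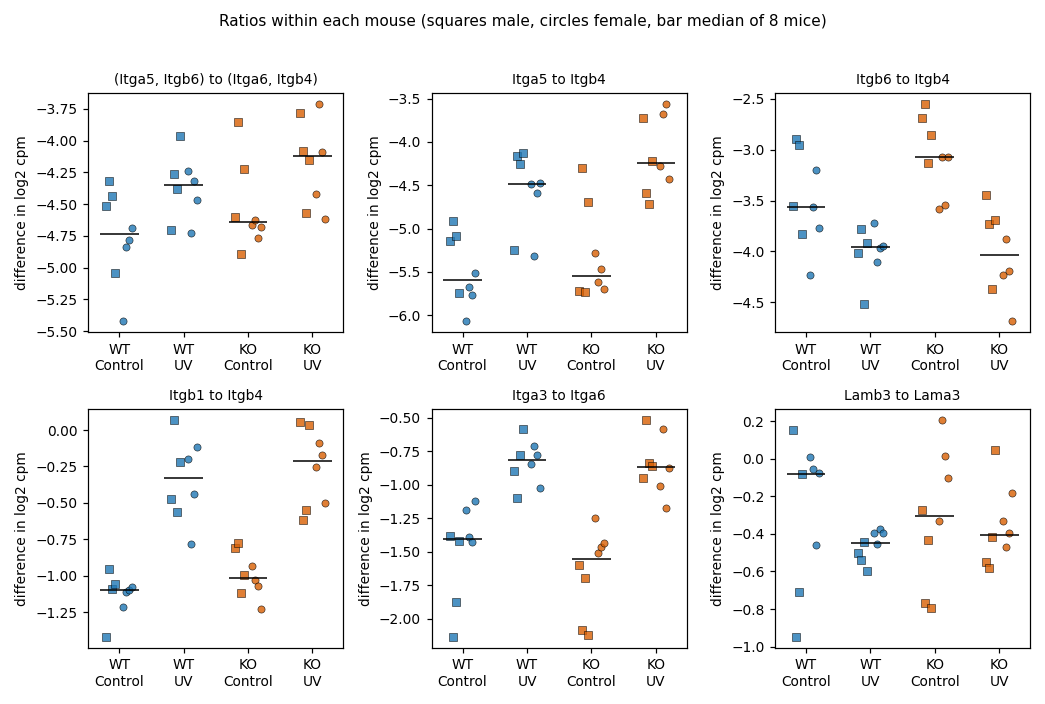
Differences in log2 cpm between members within each mouse, as single pairs of genes or as the mean of Itga5 and Itgb6 minus the mean of Itga6 and Itgb4 (first panel); squares are males, circles are females, bars are medians of 8 mice. UV mice lie above Control mice without overlap for Itgb1 to Itgb4 and Itga3 to Itga6, lie lower on average for Itgb6 to Itgb4, and overlap with them for Lamb3 to Lama3.

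Per kb of annotated exon, the order of the members differed between Control and UV mice. In WT Control mice Itgb4 (median 21.9 cpm per kb), Itga6 (20.5), Itgb1 (17.7), Itga3 (13.6), Lamb3 (11.5) and Lama3 (7.51) followed each other with overlapping ranges. Itga2 (2.05) and Itgb6 (1.69) came next, apart from Lama3 but not from each other, and Itga5 (0.614) was apart below them. In WT UV mice Itgb1 led with a median of 106 cpm per kb, ahead of Itgb4 (72.6), Itga6 (66) and Itga3 (56), with overlapping ranges. Lamb3 (24.6) and Lama3 (19.8) formed a next step, and Itga2 (8.74), Itga5 (4.60) and Itgb6 (4.43) the lowest. The wound-induced chains thus stayed the least abundant transcripts of the 9 after UV, beside Itga2.

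Not every part of the junction moved with the members. Among 8 other genes of the hemidesmosome and its anchorage, 1 rose, 6 fell and 1 was not called in WT. In KO 2 rose (Col17a1 and Lad1), 4 fell (Plec, Col7a1, Frem2 and Fras1) and 2 were not called (Dst and Cd151). The shares of all genes tested that rose and fell were 34.5% and 36.5% in WT, and 37.3% and 33.5% in KO. The median log2 change of this list was -0.49 in WT and -0.24 in KO. The gene that rose in WT was Lad1, a component of anchoring filaments, at 0.35 ± 0.07. The largest falls were those of Frem2 (median 14.0 cpm in WT Control and 0.0322 in WT UV mice) and Fras1 (0.609 and 0.0799 cpm), whose products form a complex beneath the basement membrane. The others, named after their values were seen, included Col7a1, the collagen of anchoring fibrils, which fell by 2.48 on the log2 scale in WT and by 1.53 in KO. Col17a1, the hemidesmosome collagen, had -0.21 in WT (adjusted p = 0.33) and 0.45 in KO (adjusted p = 0.037), a call lost in 10 of 37 alternative fits, as that of Lad1 in KO was in 12. The plakins Plec and Dst, which hold keratin filaments, had -0.29 and -0.69 in WT (adjusted p = 0.0071 and 1.2e-05), and -0.27 and -0.21 in KO (adjusted p = 0.011 and 0.13). The log2 ratio of Itgb4 to Col17a1 within a mouse was -2.48 ± 0.19 in Control and -0.53 ± 0.17 in UV mice of WT, and -2.44 ± 0.22 and -0.61 ± 0.12 in KO, without overlap.

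**Figure D4:**
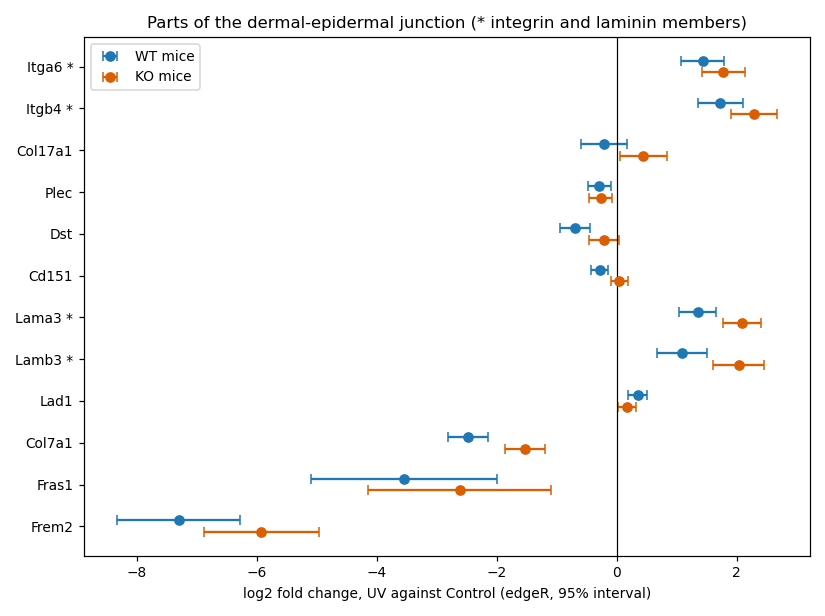
Log2 fold change of UV against Control mice with its 95% interval for genes of the dermal-epidermal junction in WT (blue) and KO (orange) mice, with the 4 members of the junction starred. Itga6, Itgb4, Lama3 and Lamb3 lie to the right of 0 and Col7a1, Fras1 and Frem2 to the left, while Col17a1, Plec, Dst, Cd151 and Lad1 lie within 1 of 0.

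Other laminin genes mostly went the other way in WT mice. Of 8 further chains examined, 0 rose and 5 fell in WT, led by Lama1 (log2 change -4.29, median 0.788 cpm in WT Control mice) and Lamc3 (-2.41, 3.52 cpm). The others that fell were Lama5, Lamb1 and Lamc1. In KO 3 rose (Lama4, Lamb1 and Lamb2) and 2 fell (Lama1 and Lamc3). Over all genes tested 34.5% rose and 36.5% fell in WT, and 37.3% rose and 33.5% fell in KO. KO UV mouse 54F held 2198 cpm of dermal fibroblast markers, against at most 109 in any other mouse, and the most endothelial marker RNA (56.9 cpm). Without it, Lamb1 (log2 change 0.03, adjusted p = 0.89) and Lamb2 (0.19, adjusted p = 0.12) lost their calls, Lama4 kept its own at 0.96 in place of 1.67 (adjusted p = 0.017), and Lama2 was called as lower (-1.83, adjusted p = 0.014). Over 37 alternative fits the KO call was lost in 14 for Lamb1 and in 11 for Lamb2. The median log2 change of the 8 chains was -0.87 in WT and, with 54F included, 0.29 in KO. Of 5 genes for proteases that process laminin-332, 4 were tested. In WT 0 rose and 3 fell, with Mmp2 (-5.31) and Tll1 (-2.12) lowest and Bmp1 (-0.89) the other, and in KO Mmp14 rose (1.01) and Mmp2 fell (-2.56, or -4.61 without 54F, where Bmp1 was also called, at -0.58). In WT the summed fibroblast markers went from 13.7 to 73.6 cpm in Control to 2.48 to 9.08 cpm after UV, beside the falls of Mmp2, Tll1, Lamb1 and Lamc1, and their part in these was not tested.

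Of 19 other integrin subunits 17 were tested, of which 7 rose and 7 fell in WT, and 9 rose and 3 fell (Itgb5, Itgae and Itga10) in KO. Of all genes tested, 34.5% rose and 36.5% fell in WT, and 37.3% rose and 33.5% fell in KO. The largest rises in WT were those of Itga9 (4.42, from a median of 0.0343 to 1.20 cpm) and Itga2b (2.31), and the largest falls those of Itgb5 (-2.25) and Itgae (-1.96), the α chain of intraepithelial lymphocytes. Of 8 leukocyte markers, 7 fell and 1 (Itgam) rose in WT, Ptprc by 1.04 and Cd3e by 1.99 among those that fell. Their summed level was 113 to 197 cpm in WT Control and 53.0 to 84.8 in WT UV mice. In KO 4 fell and 1 rose, with 82.6 to 202 cpm in Control and 54.4 to 355 in UV mice (median 106). The highest of these, 355 cpm, was that of 54F. Itgae, Itgal, Itgax and Itga4, leukocyte integrin chains, were among the 7 that fell in WT. Other leukocyte chains did not fall: Itgb7 (1.06) and Itgam (0.91) rose in WT and Itgb2 (-0.13) was not called. In KO Itgb7 (1.34), Itgam (1.54) and Itgb2 (1.17) rose, Itgae fell, and Itgal, Itgax and Itga4 were not called. The part of the leukocyte share in these values was not tested. The partner of Itgb6, Itgav, rose by 0.52 ± 0.08 in WT and 0.50 ± 0.08 in KO on the log2 scale. Itgb5, which competes for the same αv chain, had 99.4 to 135 cpm in WT Control mice and 14.0 to 33.1 after UV, and 106 to 155 and 18.5 to 44.2 in KO. The log2 ratio of Itgb6 to Itgb5 was -3.25 ± 0.31 in WT Control and 0.35 ± 0.38 in WT UV mice, and -3.40 ± 0.50 and 0.20 ± 0.42 in KO, without overlap. Itgb8, another αv partner that activates TGF-β, rose by 0.90 in WT and 0.71 in KO.

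**Figure D5:**
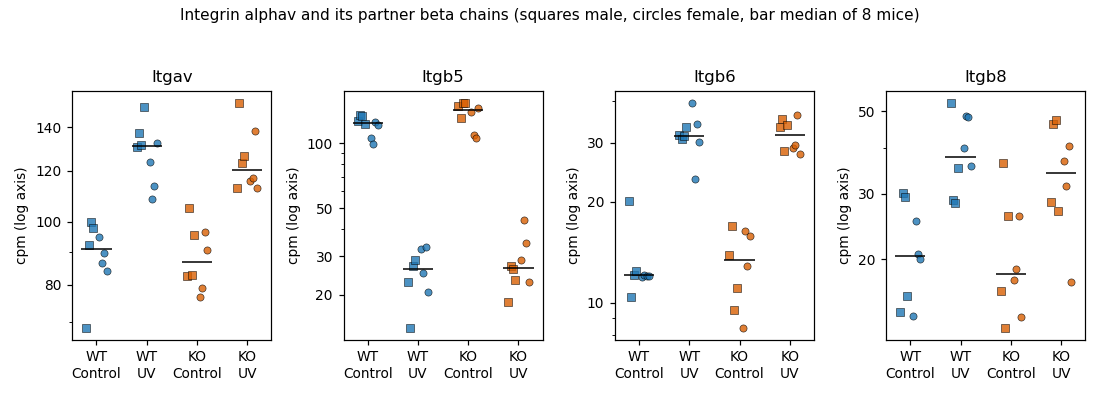
TMM-scaled cpm of Itgav and of 3 β chain genes whose products pair with it, in each mouse on log axes; squares are males, circles are females, bars are medians of 8 mice. Itgb5 falls from above 99 cpm to below 45 cpm after UV, while Itgb6 and Itgav rise.

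Among ligands of α5β1 and αvβ6 and the factors they activate, 7 of 8 genes were tested. In WT 4 rose (Ltbp1, Spp1, Tnc and Tgfb1) and 2 fell, and in KO the same 4 and Fn1 rose and Tgfb2 fell. Ltbp1, which tethers latent TGF-β to the matrix, rose by 4.00 and Spp1, which encodes osteopontin, by 2.02 in WT, and Tgfb2 and Tgfb3 were lower, at -1.79 and -1.35. Fn1, the fibronectin gene, had -0.64 in WT (adjusted p = 0.38) and 2.01 in KO (adjusted p = 0.0075). Without 54F, the mouse rich in fibroblast markers, Fn1 had 0.43 in KO and was not called (adjusted p = 0.41), and Tgfb2 had -2.44 in place of -1.32. Tgfb3 was lower in WT beside the lower fibroblast markers given above. Of 12 activators and adaptors on the inner side of the receptor, 7 rose and 3 fell in WT, and 8 rose and 1 fell in KO. Zyx (2.27) and Src (1.85) rose most, and Tln2 (-2.62) and Ilk (-0.46) fell most in WT, where Tln1 fell too, while in KO the gene that fell was Tln2. Of 11 wound-edge keratinocyte genes, 10 rose in WT (Mmp9 was not called) and 11 in KO, led in WT by Mmp10 (5.43) and Krt6a (4.91), a keratin of activated keratinocytes. Beside the counts of these lists, 34.5% of all genes tested rose and 36.5% fell in WT, and 37.3% and 33.5% in KO.

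The genes whose pattern over the 32 mice was most like that of Itgb4, members aside, were Rin1, Cdh3 and Ccnd1, with Pearson correlations of log2 cpm of 0.985, 0.984 and 0.982. For Itga5, Capns1 (0.977) and Jpt2 (0.973) were among the 3 most alike. The 32 mice include both treatments, so the step between Control and UV is part of these values.

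Several features of the libraries moved with UV or genotype beside these results. For scale, 34.5% of all genes tested rose and 36.5% fell after UV in WT, and 37.3% and 33.5% in KO. Of 6 basal keratinocyte markers 1 rose (Krt14) and 3 fell (Krt5, Krt15 and Dst) in WT, while in KO 3 rose (Krt14, Trp63 and Col17a1) and 1 fell (Krt15). The summed level was 7700 to 16646 cpm in WT Control and 16757 to 28834 in WT UV mice, 5692 to 12264 and 16375 to 28235 in KO. Krt14 weighs most in this sum, so the sum does not describe the markers as a set. In single mice Krt14 reached 22819 cpm, Krt5 7139 and any other of these markers at most 1399. Trp63, the transcription factor of basal cells, had a log2 change of 0.18 in WT (adjusted p = 0.076) and 0.23 in KO (adjusted p = 0.024). Relative to Trp63, Itgb4 was higher after UV by 1.64 in WT and 2.05 in KO, without overlap. Other basal markers moved further, with Krt14 at 1.70 in WT and 2.00 in KO and Krt15 at -6.08 and -5.18. The ratio to Trp63 thus does not describe Itgb4 against the basal markers as a set. Of 7 suprabasal markers 6 fell in each genotype, while Dsc1 rose, by 0.67 in WT and 0.34 in KO (edgeR, adjusted p = 0.00024 and 0.044). Their summed level was 63382 to 73963 cpm in WT Control and 10812 to 24620 in WT UV mice. Dermal fibroblast markers, of which 3 of 8 fell in WT (Col1a1, Col1a2 and Col3a1) and 0 were called in KO, summed to 3.26 to 109 cpm in KO Control and, 54F included, to 6.55 to 2198 cpm in KO UV mice. With 54F included, 7 of the 8 (all but Pdgfrb) were called higher in KO than in WT UV mice. The other KO UV mice held 6.55 to 32.5 cpm in sum, and WT UV mice 2.48 to 9.08. These marker comparisons without 54F are not given here, so they do not describe KO UV mice in general. Without 54F all 9 members were still called after UV in KO, at log2 changes of 1.30 (Itgb6) to 3.43 (Itga5), and 0 for the genotype comparisons. The 5 skeletal muscle markers summed to 3.71 to 2565 cpm in single mice, with both low and high mice in all genotype and treatment pairs. Their median sum was 418 cpm in WT Control and 15.5 in WT UV mice, and 80.1 and 62.5 in KO. The part of muscle RNA in the results was not tested. Ppard itself had 87.2 to 105 cpm in WT and 70.2 to 88.8 in KO Control mice, and 252 to 326 and 175 to 239 after UV. The counts cover the whole gene, so they do not check the deletion, and KO is used as the labels give it.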

How the data were processed

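Per the labels and the study's methods, RNA from separated epidermis of 32 mice was made into poly(A) libraries and read as single ends. The authors trimmed reads with Cutadapt 1.8, aligned them with STAR 2.5.3a and counted them per gene with htseq-count 0.9.1, and they deposited raw counts per gene with no scaling. The labels name the mouse build GRCm38, while the study's methods give a human build name. RNA quality numbers are 6.4 to 8.4 by the labels, while the study's methods give a higher range. Libraries held 22919428 to 40653581 reads on genes (median 27600228). These carry no molecular identifiers. Replicates are different mice by their labels, and none were alike within counting noise.

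From these counts, genes reaching 1 cpm in 1 mouse or more were scaled by TMM and fitted with edgeR 4.0.16 (quasi-likelihood test, R 4.3.3) in 1 fit of 8 group means. Benjamini-Hochberg adjustment ran over all 15546 genes of each contrast, with a threshold of 0.05. Contrasts are means over the sexes. Levels are TMM-scaled cpm, and ratios use log2 cpm with a prior count of 1. Alternatives were RLE scaling, DESeq2 1.42.0, limma-trend (limma 3.58.1), filterByExpr, no filter, each genotype alone, a prior count of 0.25 and the removal of each mouse. The fits were tested on simulated data. Symbols, spans and exon lengths came from GENCODE M21 (GRCm38), and promoter windows from RefSeq (GRCm38.p6). Exon length is the union over annotated transcripts.

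The members and gene lists were chosen with earlier results of these data known. From each list, the 2 called genes with the largest rise and the 2 with the largest fall after UV in WT were named, as were the 3 genes most correlated with Itgb4 and with Itga5. 1 gene of these lists is not reported here. Any further gene was named with its values known.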

Additional observations from a re-analysis of the deposited data

Results flagged for a closer look

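In 5 of the 72 combinations of member and group of 4 mice, 1 mouse stood apart from the other 3 by Dixon's test, and chance alone marks about 1 in 20. WT UV female 57F was low for 3 members, with 10.1 cpm of Itga5 (others 20.9 to 23.1), 125 cpm of Lama3 (others 211 to 220) and 91.6 cpm of Lamb3 (others 163 to 168). WT UV male 57M was high for Itga3 at 418 cpm (others 298 to 311), and WT Control female 61F was high for Itga6 at 329 cpm (others 167 to 194). Outside the members, 5 genes of the pathway lists differed in their UV change between genotypes (genotype-by-UV interaction, edgeR), as did 0.765% of all genes tested. The change in KO minus that in WT was 0.95 for Col7a1 (adjusted p = 0.038), whose fall was smaller in KO, -0.95 for Areg (adjusted p = 0.019), 1.07 for Mmp14 (adjusted p = 0.035), 1.66 for Mmp9 (adjusted p = 0.038) and 2.15 for Itga4 (adjusted p = 0.047). Over 37 alternative fits the call was lost in 21 for Col7a1, 18 for Mmp14, 19 for Mmp9, 24 for Itga4 and none for Areg. Without KO UV mouse 54F the values were 0.89 for Mmp14 (adjusted p = 0.057), 1.64 for Mmp9 (adjusted p = 0.052) and 1.63 for Itga4 (adjusted p = 0.072).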

How the results depend on the processing

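The rise of all 9 members after UV in WT and in KO was the same under every alternative run, each genotype fitted alone included. Removing 1 mouse at a time gave 8 to 9 members called in WT females, 9 in the other sex and genotype pairs, and 0 to 1 members for the genotype-by-UV interaction, which DESeq2 raised to 2. No alternative called a member for genotype in Control, genotype in UV or sex by UV. Over all genes, the interaction called 119 genes (DESeq2 792, no filter 55, 56 to 346 without 1 mouse), genotype in UV 514 (DESeq2 1116, limma-trend 260, no filter 263, 133 to 983 without 1 mouse, and 209 without 54F), genotype in Control 32 (DESeq2 78, 20 to 45 without 1 mouse) and sex by UV 0 (DESeq2 22, limma-trend 2, 0 to 1 without 1 mouse). The cause of these differences was not tested. The shift of wound-induced against hemidesmosome integrins ranged from 0.28 to 0.43 in WT and from 0.29 to 0.46 in KO without 1 mouse.

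Values near 0 that passed no test changed sign. Without 1 mouse, genotype in UV ranged from -0.0672 to 0.0689 for Itga3, -0.0433 to 0.123 for Itga6, -0.0513 to 0.113 for Itgb4 and -0.0766 to 0.0569 for Itgb6. Genotype in Control ranged from -0.0547 to 0.146 for Itgb6, and its interaction with UV from -0.150 to 0.0504. Sex by UV ranged from -0.0624 to 0.168 for Itga6, -0.0584 to 0.136 for Lama3 and -0.0952 to 0.0805 for Itgb6. By tool, genotype in UV gave -0.0039 for Itga3 with RLE and -0.0038 with DESeq2, and 0.0027 for Itgb6 with limma-trend, and sex by UV gave -0.0039, -0.0035 and -0.0081 for Itgb6 with RLE, DESeq2 and limma-trend. No paired analysis was possible because no pair of the 8 groups shares more than 1 leading number of the mouse labels, and the 8 numbers that recur are each carried by 1 male and 1 female. Leaving out 54F for the pathway lists in KO, chosen after seeing the data, changed the other laminins from 3 to 1 that rose and from 2 to 3 that fell, the ligands from 5 to 4 that rose and the proteases from 1 to 2 that fell, and no count of the other 4 lists. In WT the fall of Itgal was lost in 12 of 37 alternative fits, and the rise of Itgam without 77F (0.58, adjusted p = 0.088).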
